A study of Mus musculus with 4 samples.

Results

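Autophagy is the process by which a cell wraps its own cytoplasm and organelles in a membrane and delivers them to the lysosome, and mitophagy is the form of it that removes mitochondria. The 44 genes described here encode this machinery and were chosen by name: the ULK initiation kinase, the PI3-kinase complex, membrane supply, the conjugation enzymes, the Atg4 proteases, the Atg8 family, cargo receptors, the mitophagy kinase *Pink1*, outer membrane receptors and the transcription factor *Tfeb*. All 44 were among the 12693 gene symbols of the expression table. RNA had been sequenced from brain ECs, the endothelial cells lining the blood vessels of the brain, sorted by the surface protein CD31 from cerebral cortex of C57BL/6 embryos at embryonic day 18. There were 2 samples labelled WT and 2 labelled FOXQ1fl/fl;Tie2-Cre, called wild-type and *Foxq1* cKO below; the study's controls were littermates without the Cre transgene. FOXQ1 is a forkhead transcription factor, and the question was which transcripts differ when it is missing from these cells. Tie2-Cre deletes the floxed allele in endothelial cells and is also known to act in blood cells, so the deletion was not restricted to brain vessels. The labels do not state how many embryos each sample came from or whether the samples were prepared separately. The p-values therefore measure the spread between these 4 samples, which may be partly technical.

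The libraries held between 15827166 and 21466436 reads on listed genes, and each member had at least 10 reads in every sample. *Foxq1* itself had 353 and 297 normalized counts in wild-type cells, against 5.44 and 32.6 in *Foxq1* cKO cells, so the labels and the targeted transcript match. A normalized count is the number of reads on a gene divided by 1 scaling factor per sample. All 13 endothelial markers examined were listed, and *Cldn5*, which encodes a tight junction protein of brain ECs, lay between 126706 and 151977 normalized counts. Transcripts of other cell types were present too. The pericyte gene *Rgs5* lay between 89164 and 93044 normalized counts, and its list summed to 135761 and 132352 in wild-type cells, against 137351 and 128177 in *Foxq1* cKO cells, with 3 of its 10 genes (*Acta2*, *Tagln* and *Myh11*) not listed. Markers of microglia and macrophages summed to 9806 and 12525 normalized counts in wild-type and to 7604 and 8463 in *Foxq1* cKO cells, while their median log2 fold change was 0.06, with 6 of 11 above 0. Without overlap, *Csf1r* (unadjusted limma p of 0.0109), *Cx3cr1* and *C1qb* were lower and *C1qc* was higher, beside 18% of all genes in each direction. *C1qc* had 141 and 35.9 normalized counts against 224 and 172, with 36 reads in wild-type 2. *Ptprc*, *Mrc1* and *Tmem119*, also above 0, had 6, 26 and 37 reads in wild-type 1. The endothelial list summed to 432633 and 399090 against 356712 and 397729, with *Flt1* and *Mfsd2a* lower at unadjusted limma p-values of 0.0463 and 0.0312. Its median log2 fold change was -0.14, with 10 of 13 below 0 and 3 above. Without overlap, 8 of the 13 endothelial markers were lower and 1 was higher, beside 18% of all genes in each direction. The genes that respond to tissue dissociation summed to 86723 and 77052 against 73999 and 74526, with *Egr1* lower at 0.0112, and markers of neural progenitors and glia to 18186 and 18566 against 16107 and 17419. These 4 sums were lower in both *Foxq1* cKO samples. So was the sum over all listed genes, at 1.81e+07 and 1.78e+07 in wild-type against 1.72e+07 and 1.73e+07 in *Foxq1* cKO cells. A lower sum of a list is therefore not by itself a lower share of the total. The sums of neuron markers (7202 and 6650 against 4889 and 7015) and fibroblast markers (8666 and 9727 against 9333 and 5626) overlapped. The part of all these lists in the values below was not tested. In a sorted population, fewer cells of a type and less RNA per cell cannot be told apart.

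The steps of autophagy follow a known order. The ULK kinase complex receives signals of nutrient and energy state, and a lipid kinase complex built on Beclin 1 then marks the membrane with the phospholipid PI3P, to which WIPI proteins bind. ATG9A vesicles and ATG2 lipid transfer proteins feed the growing membrane, while enzymes related to the ubiquitin system attach the small Atg8 proteins (LC3 and GABARAP) to it. Cargo receptors hold protein aggregates or mitochondria to these Atg8 proteins, and TFEB is a transcription factor for many autophagy and lysosome genes. Brain ECs are known to hold more mitochondria than the endothelium of many other organs. Much of this control is exerted on proteins, by phosphorylation, lipid attachment and degradation, and RNA measures none of it.

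No member passed the test for a difference between the genotypes after adjustment for all 12472 genes tested (limma, Benjamini-Hochberg adjusted p between 0.857 and 0.997). The transcriptome as a whole gave 0 genes at an adjusted p under 0.05, which is 0% of those tested. At an unadjusted p under 0.05 limma gave 3 of 44 members (6.82%), against 651 genes (5.22%) across the table. These 3 members, *Ulk1*, *Pik3r4* and *Atg5*, were all higher in *Foxq1* cKO cells, the direction of 2.17% of all genes. No member had a p under 0.05 with lower values, against 3.05% of all genes. DESeq2 and edgeR on the recovered reads each gave 0 members at an adjusted p under 0.05, beside 0.488% of all genes for DESeq2 and 0% for edgeR. At an unadjusted p under 0.05 each gave 3 members, beside 6.49% of all genes for DESeq2 and 4.92% for edgeR. The share of members past the unadjusted line was thus close to the share among all genes.

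**Figure D1:**
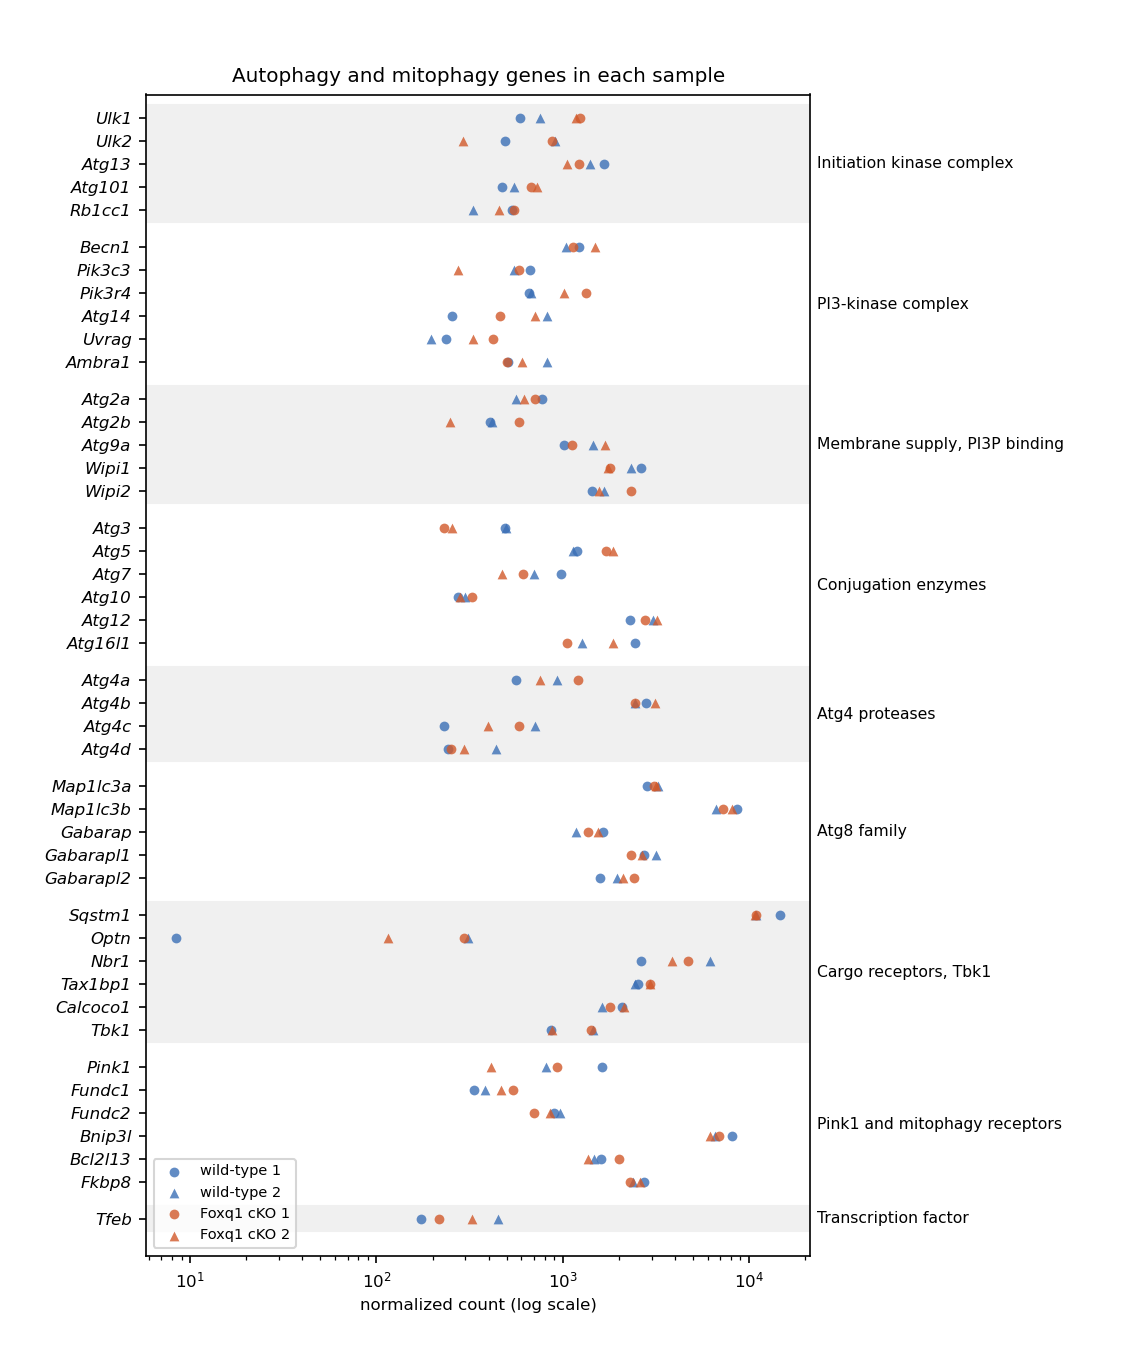
Normalized count of each of the 44 members (log scale) in the 2 wild-type samples (blue) and the 2 *Foxq1* cKO samples (orange), grouped by role. The groups overlap in 29 members and are apart in 15. *Optn* in wild-type 1, at 8.43, is the lowest point.

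The log2 fold changes of the members lay on both sides of 0, from -1.03 to 1.78. The median log2 fold change (*Foxq1* cKO minus wild-type, on log2 of the normalized count plus 1) was 0.07 over the members and 0.01 over all genes, and the member median moved with single samples, from -0.02 without wild-type 1 to 0.11 without wild-type 2. Of the members, 26 had a value above 0 and 18 below, and 25 to 28 were above 0 in the alternatives that kept all 4 samples. The groups did not overlap in 15 members (34.1%), against 36% of all genes, with 8 of them higher (18.2%, against 18%) and 7 lower (15.9%, against 18%) in *Foxq1* cKO cells. In 26 members the standard error was at least as large as the log2 fold change. The 95% confidence interval stayed within a 2-fold change in either direction for 19 members and reached beyond it for the other 25, so for the latter a 2-fold difference was not excluded. Members made up 0.447% and 0.439% of the reads in wild-type cells, against 0.458% and 0.446% in *Foxq1* cKO cells.

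**Figure D2:**
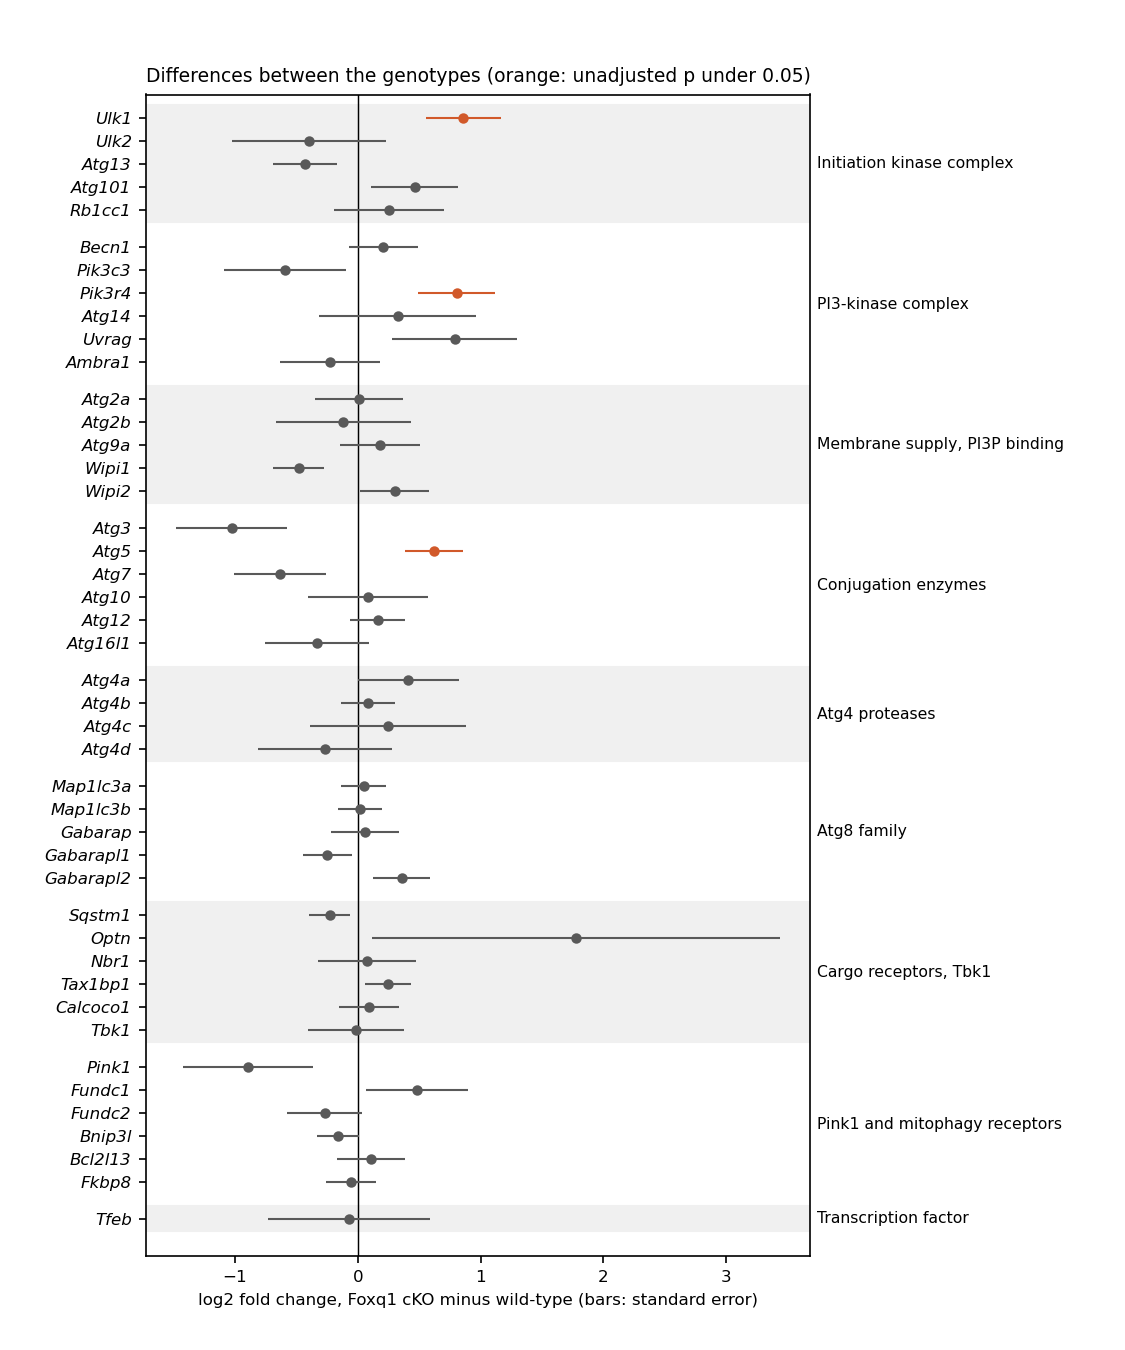
Log2 fold change of each member (*Foxq1* cKO minus wild-type), with bars of 1 standard error from limma. Orange marks *Ulk1*, *Pik3r4* and *Atg5*, the members with an unadjusted p under 0.05. *Optn* has the widest bar, with a standard error of 1.66.

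The initiation kinase complex held the member with the smallest p. *Ulk1*, the kinase that starts autophagosome formation, lies at chr5:110784488-110810097 on the minus strand of GRCm38. It had 592 and 756 normalized counts in wild-type cells, against 1241 and 1185 in *Foxq1* cKO cells. Both *Foxq1* cKO values were above both wild-type values, and each pair of replicates lay close together. The wild-type mean was 673.6 ± 116 (SD, n = 2), against 1213 ± 39.5 (SD, n = 2) for *Foxq1* cKO. This gave a log2 fold change of 0.86 (standard error 0.304) and an unadjusted p of 0.0298 in limma, the 373rd smallest of 12472, and an adjusted p of 0.857. Leaving out single samples gave 0.68 to 1.03, and p was under 0.05 in limma without wild-type 2 and not without any of the other 3 samples. The paralog *Ulk2* had 491 and 904 normalized counts in wild-type cells, against 879.6 and 291 in *Foxq1* cKO cells, so its groups overlapped. *Atg13*, the adaptor of the kinase, had 1670.1 and 1407 against 1224 and 1056, and its stabilising partner *Atg101* had 470.2 and 549 against 675 and 729. *Atg13* and *Atg101* thus had no overlap in opposite directions, with log2 fold changes of -0.43 (unadjusted limma p of 0.148) and 0.46 (p of 0.237). The groups were apart in 3 of the 5 genes of this complex, beside 36% of all genes without overlap. *Rb1cc1*, the scaffold FIP200, overlapped between the groups.

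Among the 6 genes of the PI3-kinase complex the groups overlapped in 4 and were apart in 2, near the 36% of all genes without overlap. *Pik3r4* encodes the regulatory subunit VPS15 of the lipid kinase and lies at chr9:105642978-105687657 on the plus strand. It had 656 and 679.9 normalized counts in wild-type cells, against 1338 and 1017 in *Foxq1* cKO cells, with no overlap between the groups. The log2 fold change was 0.80 (standard error 0.31, unadjusted limma p of 0.0407), and p exceeded 0.05 when any of the 4 samples was left out, with log2 fold changes between 0.61 and 1.002. *Uvrag*, which joins Beclin 1 in the endosomal form of the complex, lies at chr7:98885021-99141141 on the minus strand. It had 235 and 197 normalized counts in wild-type cells, against 420.2 and 331 in *Foxq1* cKO cells. A log2 fold change of like size, 0.79, came with a standard error of 0.507 and an unadjusted limma p of 0.17, and its exons share 1589 bp with *Gm45187* on the opposite strand. The catalytic subunit *Pik3c3* had 667 and 545 against 580.3 and 275, with a log2 fold change of -0.59 (standard error 0.497). *Atg14*, which directs the complex to autophagosomes, had 254 and 822 in the wild-type samples alone, a spread wider than the difference between the group means. *Becn1*, encoding Beclin 1, and its regulator *Ambra1* overlapped too, at log2 fold changes of 0.21 and -0.23.

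Of the 5 genes for membrane supply and PI3P binding, only *Wipi1* was without overlap, beside 36% of all genes. *Wipi1* had 2622 and 2332 normalized counts in wild-type cells, against 1789.8 and 1752 in *Foxq1* cKO cells. The difference of -0.48 on the log2 scale had a standard error of 0.208, and its unadjusted limma p was 0.0593. The related PI3P-binding gene *Wipi2* had a value of 0.30 with overlapping groups, as had the lipid transfer genes *Atg2a* (0.01) and *Atg2b* (-0.12) and the lipid scramblase gene *Atg9a* (0.18). Exons of *Atg9a* share 1832 bp with *Gm29253* on the same strand, which leaves its count uncertain.

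The 6 conjugation genes held differences of opposite sign, with the groups apart in 3 of them, beside 36% of all genes without overlap. *Atg3* encodes the E2-like enzyme that passes Atg8 proteins to their lipid. It had 492 and 496 normalized counts in wild-type cells, against 232 and 253 in *Foxq1* cKO cells, so the *Foxq1* cKO mean was 49.1% of the wild-type mean and the replicates of each genotype were close to each other. The log2 fold change of -1.03 (standard error 0.451) had a 95% interval of -2.13 to 0.08 and an unadjusted limma p of 0.0629. That p depended on how the spread was estimated: it was 0.00385 when *Atg3* was tested on its own spread without moderation, and between 0.0222 and 0.0986 under the other 10 alternatives run on all 4 samples. *Atg7*, the E1-like enzyme that activates Atg8 proteins and ATG12, had 981 and 704 normalized counts in wild-type cells, against 609.6 and 470.0 in *Foxq1* cKO cells. Its values were lower in both *Foxq1* cKO samples, at a log2 fold change of -0.63 (standard error 0.372, unadjusted limma p of 0.139).

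*Atg5*, whose protein is joined to ATG12 and forms part of the E3-like complex, went the other way. It had 1196 and 1129.5 normalized counts in wild-type cells, against 1715 and 1869 in *Foxq1* cKO cells, 154% of the wild-type mean. The groups were well apart relative to their replicates, and the log2 fold change was 0.62 (standard error 0.238, unadjusted limma p of 0.039). As for *Pik3r4*, p exceeded 0.05 when any sample was left out, with log2 fold changes of 0.56 to 0.68. The other members of the ATG12 branch overlapped between the groups. *Atg12* had a log2 fold change of 0.16, *Atg10*, its E2-like enzyme, 0.09, and *Atg16l1*, the third part of the complex, -0.33. *Atg3* lies at chr16:45158785-45188538, *Atg5* at chr10:44268358-44364291 and *Atg7* at chr6:114643097-114860614, all on the plus strand.

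The promoters of these 3 conjugation genes are shown because each held the letters CACGTG, the E-box to which TFEB and related factors are known to bind and which forms the centre of the CLEAR element of lysosome and autophagy genes. The 250 bases before the RefSeq start site are given 5′ to 3′ on the plus strand of GRCm38.p6, at chr16:45158579-45158828, chr10:44268089-44268338 and chr6:114670846-114671095, with CACGTG in capitals. The start sites of *Atg3* and *Atg7* used here lie inside the gene spans given above, since other transcripts start further upstream. The last bases shown for *Atg3* and all those shown for *Atg7* are thus within those spans.
Atg3: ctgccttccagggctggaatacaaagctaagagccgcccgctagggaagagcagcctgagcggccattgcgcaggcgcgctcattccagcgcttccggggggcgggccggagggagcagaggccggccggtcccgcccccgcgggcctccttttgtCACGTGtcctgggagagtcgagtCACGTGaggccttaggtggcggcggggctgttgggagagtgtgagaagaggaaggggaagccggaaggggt
Atg5: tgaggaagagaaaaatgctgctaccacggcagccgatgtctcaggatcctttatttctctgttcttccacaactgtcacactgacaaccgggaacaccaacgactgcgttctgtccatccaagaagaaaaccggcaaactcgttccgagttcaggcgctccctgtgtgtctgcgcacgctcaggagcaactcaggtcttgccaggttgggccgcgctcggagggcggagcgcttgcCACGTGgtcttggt
Atg7: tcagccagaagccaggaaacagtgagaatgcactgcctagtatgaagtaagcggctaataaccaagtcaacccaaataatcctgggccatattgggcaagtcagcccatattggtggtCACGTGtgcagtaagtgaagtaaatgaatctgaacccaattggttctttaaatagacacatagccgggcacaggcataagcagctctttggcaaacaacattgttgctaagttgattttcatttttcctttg
The motif began 94 and 71 bases before the start site in *Atg3*, 14 bases before it in *Atg5* and 132 bases before it in *Atg7*. Windows of 300 bases, from 250 before to 50 after a start site, were found for 37 of the 44 members. On either strand, CACGTG was in the windows of 5 of these 37 genes (13.5%), against 11.6% of 9332 genes with a window. The other members with it were *Atg14* and *Tbk1*. The longer TCACGTG, which contains it, was in 4 (10.8%, against 7.12%). The forkhead core TGTTTA, searched because FOXQ1 belongs to that family, was in 5 (13.5%, against 10.3%): *Ambra1*, *Atg4a*, *Fkbp8*, *Gabarapl1* and *Wipi2*. The 7 letters TGTTTAC, which contain it, were in 0 of 37 windows, against 3.01% of all genes. Of the 5 members with CACGTG, *Atg5* was higher and *Atg3* and *Atg7* lower in *Foxq1* cKO cells without overlap, beside 36% of all genes without overlap. In *Atg14* and *Tbk1* the groups overlapped, and none of the 5 passed adjustment. Of the 5 members with TGTTTA, *Gabarapl1* was lower without overlap, and in *Ambra1*, *Atg4a*, *Fkbp8* and *Wipi2* the groups overlapped. An unadjusted limma p under 0.05 was found for *Atg5* and for none of the members with TGTTTA, beside 5.22% of all genes. With 5 genes for each motif, these counts are too few to read. The study reports that FOXQ1 prefers GTTTC at other genes, and that motif was not searched here.

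The Atg4 proteases, which trim Atg8 proteins before conjugation and free them afterwards, overlapped between the genotypes in all 4 genes, beside 36% of all genes without overlap. Their log2 fold changes were 0.41 for *Atg4a*, 0.08 for *Atg4b*, 0.25 for *Atg4c* and -0.27 for *Atg4d*. *Atg4c* had 231 normalized counts in wild-type 1 and 713 in wild-type 2, a 3.09-fold spread within 1 group.

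The Atg8 family, whose proteins coat the autophagosome and are its usual marker, was abundant and differed little. *Map1lc3a* had 2849 and 3231 normalized counts in wild-type cells, against 3100.5 and 3174 in *Foxq1* cKO cells. *Map1lc3b*, which encodes the LC3B of most autophagy assays, had 8677 and 6653 against 7281 and 8158. *Gabarap* had 1647 and 1184 against 1375 and 1545. In these 3 genes the *Foxq1* cKO values lay inside the wild-type range, and the log2 fold changes were 0.05, 0.02 and 0.06 with standard errors of 0.184, 0.179 and 0.276. *Gabarapl1* had 2734 and 3185 normalized counts in wild-type cells, against 2326 and 2658 in *Foxq1* cKO cells, at a log2 fold change of -0.25. *Gabarapl2* had 1577 and 1957 against 2405 and 2106, at 0.36. These last genes, 2 of 5, had no overlap, in opposite directions, beside 36% of all genes without overlap. Their unadjusted limma p-values were 0.267 and 0.173. For *Map1lc3b* the 95% interval of the log2 fold change ran from -0.42 to 0.46, and for *Map1lc3a* from -0.40 to 0.50, so all these bounds lay within a 2-fold change.

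Divided by exon length, the levels of the Atg8 genes were set beside each other. Exon length was that of the merged exons of all annotated transcripts of a gene. It was 7.517 kb for *Map1lc3b*, 1.181 kb for *Map1lc3a* and 2.013 kb for *Gabarapl1*. The order per kb depends on this divisor, since the undivided counts were highest for *Map1lc3b* in each of the 4 samples. In wild-type cells *Map1lc3a* had 2574 ± 229 normalized counts per kb of exon (SD, n = 2), *Gabarapl1* 1470 ± 158 (SD, n = 2), *Map1lc3b* 1019.7 ± 190 (SD, n = 2), *Gabarap* 768 ± 178 (SD, n = 2) and *Gabarapl2* 759.9 ± 116 (SD, n = 2). *Map1lc3a* and then *Gabarapl1* stood above the rest in each of the 4 samples, while the neighbours *Map1lc3b* and *Gabarap* in wild-type cells, and *Gabarap* and *Gabarapl2* in the same cells, were within each other's spread. Summed over the 5 genes, the family reached 6496 and 6687 normalized counts per kb in wild-type cells, against 6530 and 6837 in *Foxq1* cKO cells, a ratio of 1.01. The sums of the genotypes overlapped. No other role class had a higher summed level per kb.

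**Figure D3:**
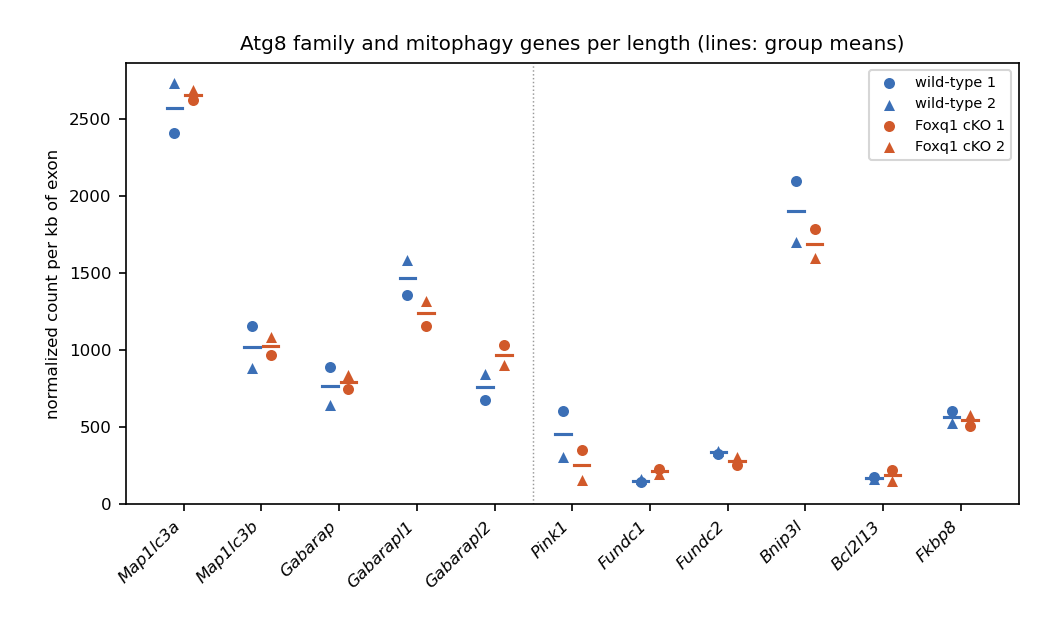
Normalized count per kb of exon for the 5 Atg8 genes (left of the dotted line) and the 6 mitophagy genes (right) in each sample, with lines at the group means. *Map1lc3a* and *Bnip3l* are the highest per kb of exon in their groups, and *Pink1* shows the widest relative spread between replicates.

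Cargo receptors link what is to be degraded to the Atg8 proteins. *Sqstm1*, which encodes p62, was the member with the most reads: it had 14659 and 10984 normalized counts in wild-type cells, against 10935.5 and 10721 in *Foxq1* cKO cells. Wild-type 2 lay next to the *Foxq1* cKO samples and wild-type 1 stood above them. The log2 fold change was -0.23 (standard error 0.169, unadjusted limma p of 0.223), and it moved to -0.02 without wild-type 1 and to -0.44 without wild-type 2. Per kb of exon its wild-type level was 3821 ± 774 (SD, n = 2), the highest of the members. *Tax1bp1*, a receptor for ubiquitin-marked cargo, had 2530 and 2443 against 2954 and 2948 normalized counts, with no overlap and the tightest replicates of the class. At a log2 fold change of 0.25 and a standard error of 0.185 it had an unadjusted limma p of 0.228, or 0.0103 when tested on its own spread alone.

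*Optn*, the receptor optineurin that acts with TBK1 in mitophagy, had a log2 fold change of 1.78 and the largest standard error of the members, 1.66, in limma. On the recovered reads its log2 fold change was 0.37 in both DESeq2 and edgeR. It had 8.43 and 309 normalized counts in wild-type cells, against 295 and 115 in *Foxq1* cKO cells. Wild-type 1, with 10 reads, was the lowest and wild-type 2 the highest of the 4 samples. Without wild-type 1 the log2 fold change was -0.74, and without wild-type 2 it was 4.30 (unadjusted limma p of 0.00561), so the sign was set by which wild-type sample was used. *Nbr1*, a receptor related to p62, had 2623 and 6215 against 4689 and 3853, and its sign turned in the same manner, from -0.55 without wild-type 1 to 0.70 without wild-type 2. *Calcoco1* and the kinase *Tbk1*, which phosphorylates these receptors, overlapped, at 0.09 and -0.01.

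Mitophagy has a branch that depends on PINK1, a kinase that accumulates on damaged mitochondria, and a branch of receptors in the outer mitochondrial membrane that bind Atg8 proteins themselves. *Pink1* had 1617 and 816.5 normalized counts in wild-type cells, against 930.8 and 412.0 in *Foxq1* cKO cells. The *Foxq1* cKO mean was 55.2% of the wild-type mean, but wild-type 2 lay below *Foxq1* cKO 1 and both pairs of replicates were about as far apart as the genotypes. The log2 fold change was -0.89 (standard error 0.529, unadjusted limma p of 0.143). It was -0.40 without wild-type 1, -1.38 without wild-type 2, -1.48 without *Foxq1* cKO 1 and -0.30 without *Foxq1* cKO 2, with an unadjusted limma p of 0.0419 without wild-type 2.

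The outer membrane receptors showed no common direction. *Fundc1* had 334 and 385 normalized counts in wild-type cells, against 539 and 466 in *Foxq1* cKO cells, and its homolog *Fundc2* had 903 and 963 against 701 and 856. *Fundc1* and *Fundc2* were without overlap in opposite directions, beside 36% of all genes without overlap. Their log2 fold changes were 0.48 (standard error 0.417) and -0.27 (standard error 0.306). *Bnip3l*, which encodes the receptor NIX known for clearing mitochondria from maturing red blood cells, had 8108 and 6569 against 6893 and 6169. It was the most abundant receptor, at 1902 ± 282 normalized counts per kb (SD, n = 2) in wild-type cells, and its log2 fold change was -0.16 (standard error 0.169). *Bcl2l13* had 1604 and 1472 against 2007 and 1372, at 0.11, and *Fkbp8* had 2726 and 2377 against 2309 and 2608, at -0.05. Both overlapped, and none of these 5 receptors had an unadjusted limma p under 0.05. Erythroid markers, whose cells also hold *Bnip3l*, summed to 20673 and 15683 normalized counts in wild-type cells, against 15841 and 20479.9 in *Foxq1* cKO cells, and their part in its values was not tested.

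*Tfeb*, the transcription factor, was low and variable. It had 173 and 449.6 normalized counts in wild-type cells, against 218 and 325 in *Foxq1* cKO cells, with both *Foxq1* cKO values inside the wild-type range. The log2 fold change was -0.07 (standard error 0.658), and it changed sign between -0.76 without wild-type 1 and 0.62 without wild-type 2. In wild-type cells it had 54.9 ± 34.5 normalized counts per kb of exon (SD, n = 2), and among the members *Atg4d*, *Optn*, *Atg2b*, *Rb1cc1* and *Uvrag* were lower per kb there.

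**Figure D4:**
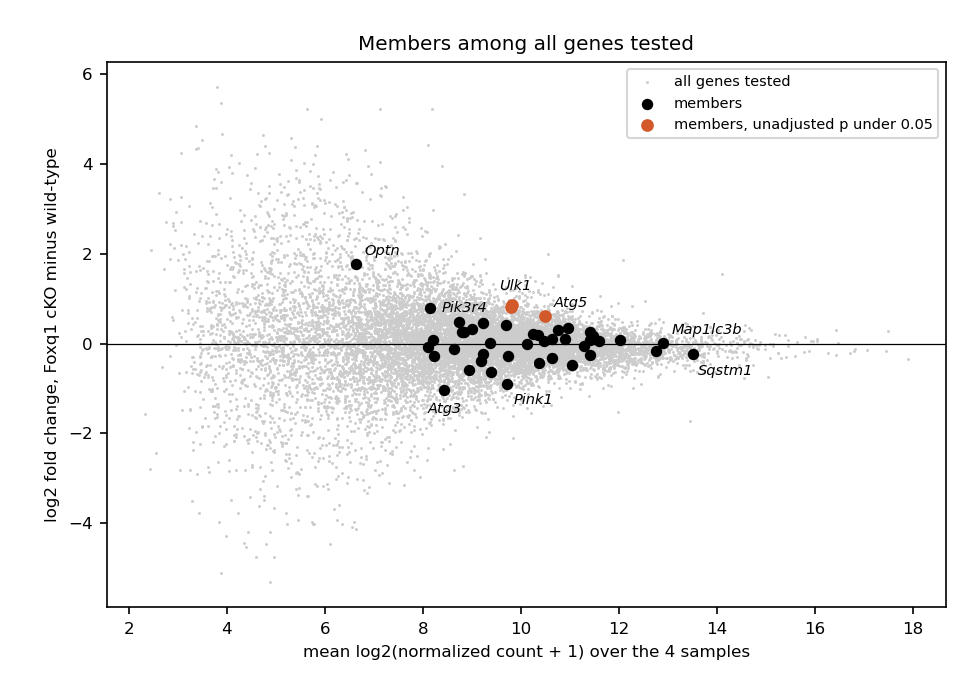
Log2 fold change (*Foxq1* cKO minus wild-type) against the mean log2 of the normalized count plus 1, for the 12472 genes tested (grey) and the 44 members (black, or orange at an unadjusted p under 0.05). The members lie within the cloud of all genes, and their median absolute log2 fold change was 0.25 against 0.37 over all genes.

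The members were less noisy than the table as a whole. Wild-type replicates differed by more than 2-fold in 5 of 44 members (11.4%) and in 3519 of the genes tested (28.2%). The median standard error was 0.341 over the members and 0.496 over all genes, beside mean normalized counts of at least 182 in every member.

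Genes of neighbouring steps, taken from lists of the same pathway, were read from the same fit. Among 12 other autophagosome genes, 14 genes of autophagosome-lysosome fusion and 21 lysosome genes, none had an unadjusted limma p under 0.05, and the medians of the log2 fold change were -0.07, -0.06 and -0.11. Among 13 other mitophagy genes the median was -0.05 and 1 gene was past that line in each direction, beside 2.17% of all genes higher and 3.05% lower. *Bnip3*, a receptor of the outer mitochondrial membrane and the paralog of *Bnip3l*, had 1781 and 1462 normalized counts in wild-type cells, against 643 and 717 in *Foxq1* cKO cells. That is a log2 fold change of -1.25 (standard error 0.283, unadjusted limma p of 0.00443, adjusted p of 0.857). In DESeq2 its adjusted p was 0.0495, and in edgeR 0.9404. *Bnip3l*, in contrast, had overlapping groups, and whether the paralogs differ from each other in their change was not tested. *Usp15*, which encodes a deubiquitinase, had 1298 and 1026 against 1912 and 2011, at a log2 fold change of 0.76 (unadjusted limma p of 0.022).

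The 22 genes of mTORC1, AMPK and TFEB control, which act on the ULK complex and on TFEB, had a median log2 fold change of -0.24, with 1 gene higher and 2 genes lower at an unadjusted limma p under 0.05, 3 of 22 beside 5.22% of all genes. *Sesn1*, which encodes a sestrin that restrains mTORC1, had 4337 and 5134 normalized counts in wild-type cells, against 2873 and 3143 in *Foxq1* cKO cells, at -0.65 (p of 0.0116). *Akt1s1*, encoding the mTORC1 inhibitor PRAS40, had 4268 and 3379 against 2287 and 2475, at -0.67 (p of 0.0162). *Fnip2*, a partner of folliculin in nutrient sensing, had 158 and 133 against 394 and 514, at 1.63 (p of 0.0217). In all 3 the groups were apart by more than their replicates, and none passed adjustment in limma. *Calcoco2*, *Prkaa2* and *Mitf*, which were on these lists, were not among the listed genes.

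**Figure D5:**
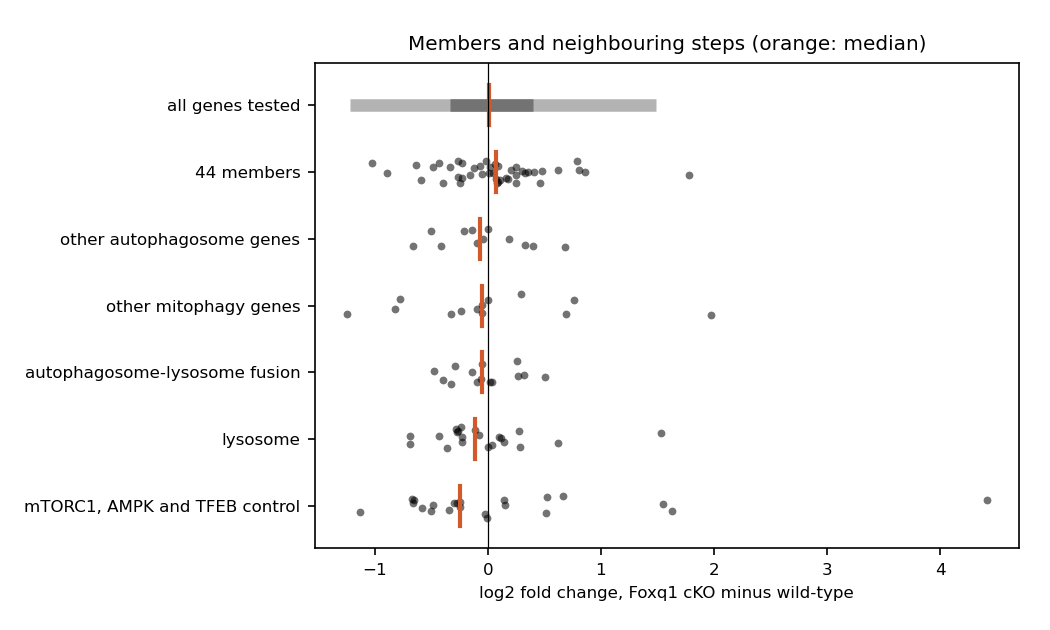
Log2 fold change (*Foxq1* cKO minus wild-type) of the 44 members and of the genes of 5 neighbouring lists, 1 point per gene with the median in orange. The grey bars show the 5th to 95th percentile (light) and the 25th to 75th percentile (dark) of all genes tested, from -1.22 to 1.49 and from -0.34 to 0.40.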

How the data were processed

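RNA-seq of 2 wild-type and 2 *Foxq1* cKO samples was analysed, with groups and replicate numbers taken from the labels. RNA was extracted with TRIzol and libraries were made by Smart-seq2, an amplification of full-length cDNA without molecular identifiers, so intervals from reads would cover counting error only. The submitters' processing notes name Bowtie2 2.2.3, TopHat2 2.0.12, HTSeq 0.6.0 and mm9, without stating their roles, and whether counting used strand is not given in the sources used here. The labels state brain as the source, and the study's methods describe CD31-sorted cells of the cortex.

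The authors deposited a normalized signal per gene. In all 4 samples 100% of the values were whole multiples of 1 step (tolerance 0.01 reads), which recovered the reads and gave size factors of 1.19, 1.00, 0.919 and 0.983. For wild-type 2 the step is so close to 1 that the deposited values nearly equal the reads. The 1207361 lines repeat each gene and were reduced to 12693 symbols, of which 8 had 2 identifiers. The lowest total of a listed gene over the 4 samples was 21 reads, and the lowest value in each sample was 1 read. No listed gene lacked reads in any sample, so complete losses could not be measured.

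Differences were tested with limma 3.58.1 (eBayes with trend, R 4.3.3) after adding a pseudocount of 1 and taking log2, which understates the change of low genes. The 12472 genes averaging 10 or more normalized counts entered, with Benjamini-Hochberg adjustment. For a single gene an exact two-sided permutation test cannot give a p below 0.333. DESeq2 1.42.0 and edgeR 4.0.16 (quasi-likelihood) served as alternatives on the recovered reads, and the scripts were tested on simulated data. Exon lengths, positions and overlaps came from a GRCm38 annotation, which is not the build in the processing notes, and were matched by identifier for 12678 symbols. In it 15 members share exon bases with another gene, which leaves their counts uncertain. The longest overlap is 3104 bp of *Becn1* with *Cntd1* on the opposite strand. *Atg4d* shares 1405 bp with *Kri1* on the opposite strand, and *Pink1* 110 bp with *Gm27646* on the same strand. Promoter windows came from RefSeq on GRCm38.p6. The members and lists were chosen with earlier results of these data known. Members described with every sample's value were those with an unadjusted p under 0.05, those without overlap and a log2 fold change of at least 0.5 in size, the Atg8 family, the mitophagy kinase and receptors, and *Tfeb*; other members given with values (such as *Optn*, *Sqstm1*, *Tax1bp1* and *Wipi1*) were added after their values were seen. From the neighbouring lists, genes with an unadjusted p under 0.05 and *Bnip3* were named, and 1 further gene is not reported here. Other alternatives changed the pseudocount, the filter, the scaling, the moderation, the replicate block, or left out a sample.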

Additional observations from a re-analysis of the deposited data

How the results depend on the processing

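In no alternative did a member reach an adjusted p under 0.05. Over the 44 members and the 11 alternatives that kept all 4 samples, 466 log2 fold changes kept their direction and their side of an unadjusted p of 0.05, 5 lost a p under 0.05, 5 gained one and 8 changed sign. The sign changes were -0.00405 for *Atg2a*, 0.00603 for *Atg2b* and -0.0489 for *Nbr1* in DESeq2, -0.0013 for *Atg2a*, 0.00838 for *Atg2b* and -0.0454 for *Nbr1* in edgeR, and 0.0128 for *Tbk1* and 0.0192 for *Fkbp8* after quantile normalization. Across the table DESeq2 gave 62 genes at an adjusted p under 0.05, where limma and edgeR gave 0. Without moderation, limma gave 5 members at an unadjusted p under 0.05 (*Ulk1*, *Atg5*, *Atg3*, *Wipi1* and *Tax1bp1*), against 3, beside 695 genes across the table, against 651. The cause was not tested.

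Leaving out 1 sample leaves 1 residual degree of freedom and assumes that the lone sample varies like the other group. The count of members at an unadjusted p under 0.05 then ran from 0 (without either *Foxq1* cKO sample) to 5 (without wild-type 2), that of all genes from 276 to 1569, and the member median from -0.0156 to 0.108. In 23 members the sign turned in at least 1 of these 4 fits, and their log2 fold changes ran from -1.19 to 0.40 for *Ulk2*, -0.0946 to 0.60 for *Rb1cc1*, -0.52 to 1.17 for *Atg14*, -0.58 to 0.13 for *Ambra1*, -0.22 to 0.24 for *Atg2a*, -0.73 to 0.49 for *Atg2b*, -0.11 to 0.47 for *Atg9a*, -0.0229 to 0.19 for *Atg10*, -0.0446 to 0.37 for *Atg12*, -0.81 to 0.14 for *Atg16l1*, -0.0922 to 0.26 for *Atg4b*, -0.56 to 1.06 for *Atg4c*. For the others they ran from -0.70 to 0.16 for *Atg4d*, -0.0426 to 0.14 for *Map1lc3a*, -0.17 to 0.21 for *Map1lc3b*, -0.18 to 0.30 for *Gabarap*, -0.74 to 4.30 for *Optn*, -0.55 to 0.70 for *Nbr1*, -0.0875 to 0.27 for *Calcoco1*, -0.39 to 0.36 for *Tbk1*, -0.16 to 0.39 for *Bcl2l13*, -0.15 to 0.0462 for *Fkbp8* and -0.76 to 0.62 for *Tfeb*.

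Both groups carry replicate numbers 1 and 2, and nothing states that equal numbers share a litter or day. Deviations of same-numbered samples correlated at 0.03 over 12472 genes. With the replicate number as a block, 2 members had an unadjusted p under 0.05 (*Ulk1* and *Pink1*) against 3, and 693 genes against 651. With 2 samples a group, replication limits all of these values, and *Optn* had its fewest reads, 10, in the deepest library.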
